A study of Arabidopsis thaliana with 9 samples.

Results

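Oxidative phosphorylation runs on 5 protein complexes of the inner mitochondrial membrane. The 59 genes described here encode nuclear subunits of these complexes in Arabidopsis thaliana and were chosen by gene identifier: 32 of complex I, 4 of complex II, 11 of complex III, 5 of complex IV and 7 of complex V. They are 59 of the 29071 genes listed in the deposited tables, and all 59 stood in both tables. The rule uses no measured value, but the list was drawn up with earlier results of these data known. RNA was sequenced from whole 7-day-old seedlings of the wild type Col-0 that had been given ethidium bromide (EtBr), doxycycline (Dox) or water, with 3 libraries for each. EtBr is a dye that inserts itself between the bases of DNA, and doxycycline, a tetracycline antibiotic, stops protein synthesis by the ribosomes of organelles, which resemble those of bacteria. All 3 groups share genotype, age and tissue, and they were grown on the same medium. The labels give neither dose nor length of treatment, and do not say whether a library pooled seedlings. A whole seedling mixes root, shoot and dividing cells.

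Complex I (NADH dehydrogenase) and complex II (succinate dehydrogenase) pass electrons to ubiquinone. Complex III passes them to cytochrome c, and complex IV (cytochrome c oxidase) from there to oxygen. Complexes I, III and IV pump protons, and complex V (ATP synthase) lets them flow back to make ATP. Except for complex II in Arabidopsis, each complex joins subunits encoded in the nucleus with subunits encoded in the mitochondrial genome, so its assembly draws on 2 genomes.

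Libraries held 17724164 to 20330871 reads over the genes listed. Levels are given as normalised read counts, that is reads divided by a size factor computed over all 9 libraries, and changes as log2 differences of (value + 1) with their standard error (SE). Replicates resembled each other: the correlation of log2 values over 20893 genes was 0.957 to 0.982 among EtBr libraries, 0.980 to 0.982 among Dox libraries and 0.964 to 0.975 among water libraries. Between EtBr and water libraries it was 0.746 to 0.789, and between Dox and water libraries 0.927 to 0.942. Nothing states that libraries came from separate cultures, so the p-values measure the spread between these libraries, which may be technical. Tissue markers also differed between the groups. The 15 root markers summed to 2067 to 2534 normalised counts under EtBr, 1688 to 2024 under Dox and 3017 to 4234 in water. EXPA18, a root hair expansin, was at 0 in all 3 Dox libraries. Its level was low elsewhere too, at 15.6, 19.1 and 11.9 under EtBr and 18.5, 16.8 and 52.1 in water. The 10 shoot markers summed to 421387 to 684026 under EtBr, 732476 to 857629 under Dox and 788966 to 879008 in water. The 9 markers of dividing cells summed to 1077 to 1368 under EtBr, 699 to 866 under Dox and 503 to 1036 in water. Most of the EtBr difference in the root sum lay in PHO1, a phosphate exporter, which averaged 328 ± 67.3 under EtBr and 1563 ± 222 in water (SD, n = 3 each). Under EtBr 5 of 15 root markers were lower than in water and 2 were higher. Of the 10 shoot markers 6 were lower and 1 was higher, and of the 9 markers of dividing cells 1 was lower and 3 were higher. Under Dox 8 of 15 root markers were lower and none was higher, while no shoot or dividing cell marker passed the test. The part of these shifts in the values below was not tested, and in whole seedlings fewer cells of a type cannot be told apart from less RNA per cell.

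EtBr moved most of the genes of complexes II, III and V upward. Dox moved few members, but it also moved few of all genes. Of the 59 members, 28 were higher under EtBr than in water, 5 were lower and 26 did not pass (limma on all genes of the table, adjusted p under 0.05). Thus 55.9% of the members were called, against 55.4% of all 28956 genes of that table, so the share called is that of the table as a whole. The table also holds weakly expressed genes. Of the 21937 genes with a mean of at least 10, 7579 were higher and 6091 lower, and 28 and 5 members. The direction differed: 47.5% of the members were higher, against 34.2% of all genes, and 8.47% were lower, against 21.2% of all genes. The members' median log2 change was 0.28, against 0.39 for all genes and -0.049 for the 15291 genes with a mean of at least 100.

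Under Dox 2 members were higher than in water, 6 were lower and 51 did not pass. The called share of 13.6% lies near the 11.7% of all 24434 genes of the Dox table. Here 3.39% of the members were higher, against 6.47% of all genes, and 10.2% were lower, against 5.27%. The median log2 change of the members was -0.085, against -0.013 for all genes, and 40 of 59 log2 changes were below 0. An unadjusted p under 0.05 was found for 22 members, against 25.7% of all 24434 genes. Each of these 8 calls was lost on leaving out at least 1 of the 6 libraries. Without Dox replicate 1, 2 or 3, or without water replicate 3, no member was called. In these settings 520 to 662 of all 24434 genes were higher and 248 to 262 lower. With all libraries it was 1581 and 1287, so the loss was not confined to the members. Without water replicate 1, 1 was higher and 1 lower, and without water replicate 2, 1 was higher and 2 were lower.

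Set against Dox, 33 members were higher under EtBr, 3 were lower and 23 did not pass, which is 61.0% called against 57.3% of all 24319 shared genes. Of the members 55.9% were higher, against 32.4% of all genes, and 5.08% were lower, against 24.8%. The 3 lower calls, B13 (AT5G52840), GAMMA CAL1 and AT2G47690 of complex I, did not pass without Dox replicate 1 or without Dox replicate 3. Under TMM scaling, which moved the median of all genes by -0.105, 8 members were lower. Both comparisons with water share the water libraries. Side by side, 2 members were higher under both treatments (SDH1-1 and SDH2-1), 1 was lower under both (AT5G52840), 1 was lower under Dox and higher under EtBr (AT3G18410) and 22 passed under neither. Another 25 members were higher and 4 lower under EtBr without passing under Dox, and 4 were lower under Dox without passing under EtBr. Of the reads over the 24319 shared genes, the 59 members together took 0.748%, 0.792% and 0.717% in the EtBr libraries. They took 0.490%, 0.458% and 0.490% in the Dox libraries and 0.502%, 0.512% and 0.558% in the water libraries. By this share all 3 EtBr libraries lay above, and all 3 Dox libraries below, every water library. As normalised counts the members summed to 131672, 142917 and 139132 under EtBr, 98918, 92579 and 97483 under Dox and 102559, 96947 and 105212 in water, so on that scale EtBr lay above the rest while Dox and water overlapped.

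**Figure D1:**
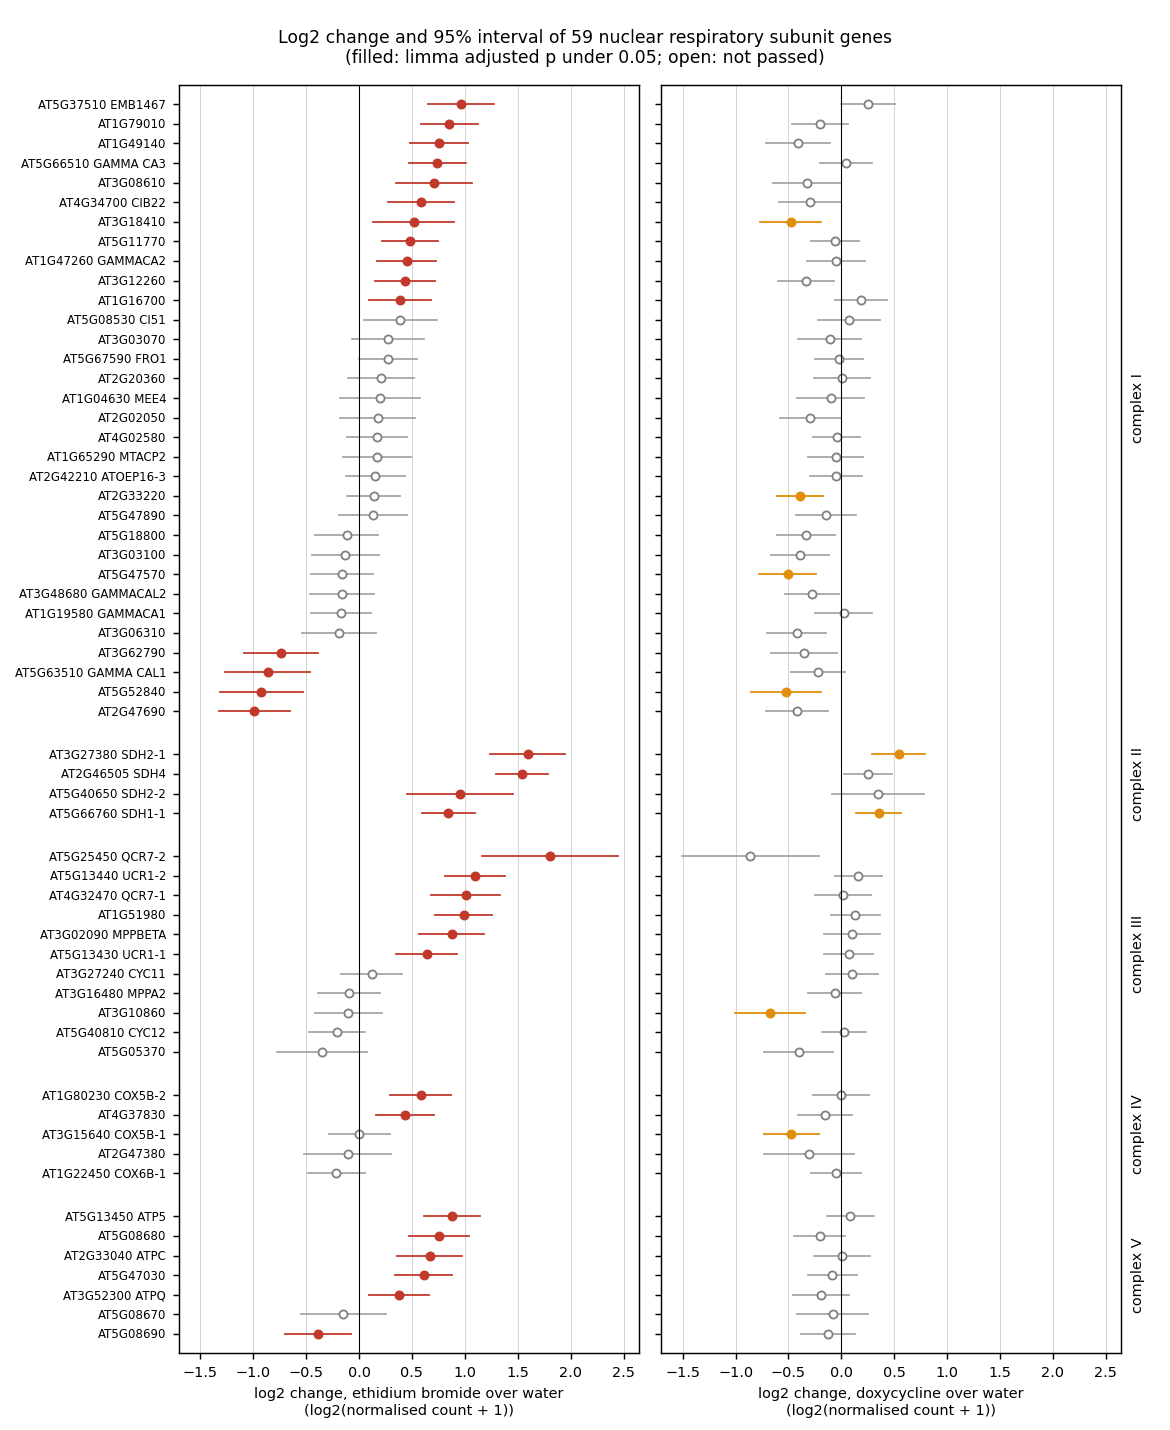
Log2 change of each of the 59 genes under ethidium bromide against water (left) and doxycycline against water (right), with 95% intervals from limma; filled points passed at an adjusted p under 0.05. Under EtBr all 4 complex II genes lie right of 0, and in complex I 11 genes lie right and 4 left of it among those that passed; under Dox 8 points are filled.

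Complex II, which also oxidises succinate in the tricarboxylic acid cycle, had all 4 of its genes higher under EtBr, where 34.2% of all genes were. Its median log2 change was 1.25, against medians of 0.18 for complex I, 0.64 for III, 0.0027 for IV and 0.61 for V. Complex II also held both members that were higher under Dox. They make 50% of its genes, against 6.47% of all genes, and its median under Dox was 0.35. SDH2-1 (AT3G27380, chr3:10129610-10132882), the iron-sulphur subunit, held 3242, 3565 and 4577 under EtBr, 1681, 1735 and 1996 under Dox and 1292, 1255 and 1131 in water. The EtBr libraries were the highest and the water libraries the lowest, with no overlap between any of the groups. Its log2 change was 1.59 ± 0.15 (adjusted p = 8.06e-05) for EtBr over water, 0.54 ± 0.11 (adjusted p = 0.0117) for Dox over water and 1.06 ± 0.15 (adjusted p = 0.00117) for EtBr over Dox. SDH4 (AT2G46505, chr2:19089486-19090776), a membrane anchor, held 2395, 2467 and 2474 under EtBr, 998, 972 and 1020.2 under Dox and 834, 837 and 815 in water. Its replicates lay close together and the groups did not overlap. The change was 1.54 ± 0.11 (adjusted p = 1.99e-05) under EtBr and 0.25 ± 0.10 (adjusted p = 0.142) under Dox, where it did not pass.

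SDH1-1 (AT5G66760, chr5:26653607-26657696), the flavoprotein that binds succinate, held 3515, 3275 and 3377 under EtBr, 2417, 2354 and 2419 under Dox and 1824, 1921 and 1836 in water. The 3 groups were again apart, in the same order. Its log2 change was 0.84 ± 0.11 (adjusted p = 0.000334) under EtBr and 0.35 ± 0.095 (adjusted p = 0.0389) under Dox. SDH2-2 (AT5G40650), a second gene for the iron-sulphur subunit, was far less abundant, at 535, 651 and 722 under EtBr, 445, 408 and 382 under Dox and 373, 233 and 378 in water. EtBr libraries lay above the others, with a log2 change of 0.95 ± 0.22 (adjusted p = 0.0062) that did not pass without EtBr replicate 2 (adjusted p = 0.0587). The Dox libraries lay above the water libraries too, but the change of 0.35 ± 0.20 (adjusted p = 0.303) did not pass. Leaving out 1 library took the adjusted p for Dox to as much as 0.0886 for SDH2-1 and 0.115 for SDH1-1. In the RefSeq annotation 18 of the 59 genes overlap a gene on the opposite strand and 6 a gene on their own strand, among them both SDH2 genes. AT3G27360, on the strand of SDH2-1, held 323, 459 and 558 under EtBr, 61.4, 61.8 and 48.9 under Dox and 39, 95 and 102 in water. AT5G40660, on the opposite strand to SDH2-2, held 714, 906 and 985 under EtBr, 446, 438 and 501 under Dox and 368, 359 and 352 in water, so it exceeded SDH2-2 in all EtBr and Dox libraries and 1 water library. No source used here says whether strand was kept, and reads of such pairs may not be told apart.

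**Figure D2:**
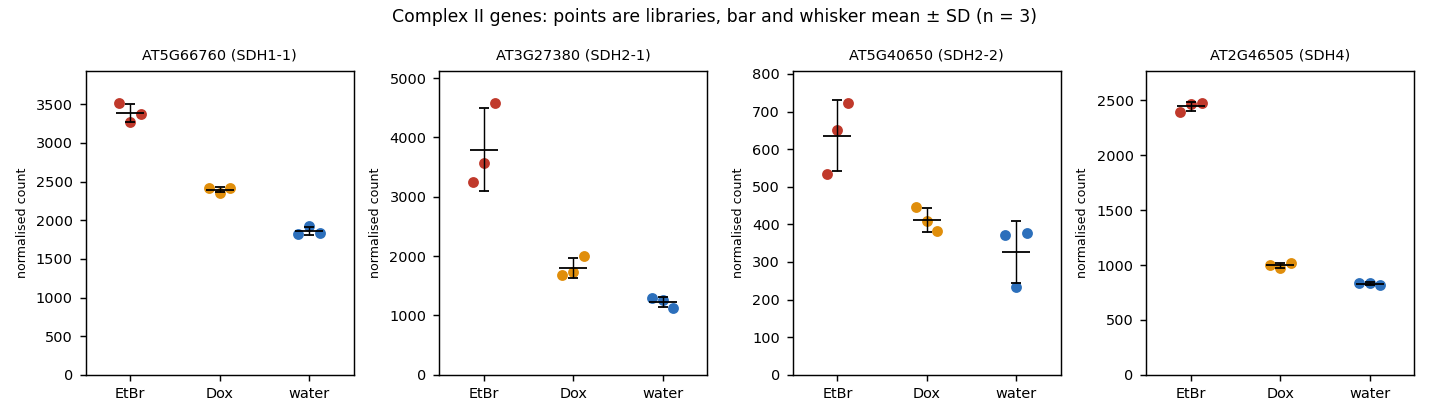
Normalised read counts of the 4 complex II genes in each library under EtBr, Dox and water; points are libraries and the black bar and whisker show mean ± SD (n = 3). For all 4 genes the 3 groups do not overlap and run downward from EtBr over Dox to water. Over 24319 genes, ranges did not overlap for 62.7% (EtBr and water), 30.7% (Dox and water) and 64.7% (EtBr and Dox).

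The 250 bases before the annotated start of each complex II gene are shown because this complex held none of the site II elements (TGGGCC or TGGGCT, read on both strands) described further on, which are known from plant genes for respiratory and ribosomal proteins. Sequences are from RefSeq (assembly TAIR10.1), 5′ to 3′ on the gene's strand; capitals mark the G box CACGTG, found before both SDH2 genes. The windows lie at chr5:26653357-26653606, plus strand (SDH1-1), chr3:10132883-10133132, minus strand (SDH2-1), chr5:16281144-16281393, plus strand (SDH2-2) and chr2:19090777-19091026, minus strand (SDH4), the last one running into the neighbour AT2G46510.
SDH1-1: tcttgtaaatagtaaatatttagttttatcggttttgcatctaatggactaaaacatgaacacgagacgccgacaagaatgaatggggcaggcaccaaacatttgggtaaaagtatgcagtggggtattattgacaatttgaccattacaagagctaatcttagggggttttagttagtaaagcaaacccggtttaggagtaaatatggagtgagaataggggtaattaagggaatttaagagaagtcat
SDH2-1: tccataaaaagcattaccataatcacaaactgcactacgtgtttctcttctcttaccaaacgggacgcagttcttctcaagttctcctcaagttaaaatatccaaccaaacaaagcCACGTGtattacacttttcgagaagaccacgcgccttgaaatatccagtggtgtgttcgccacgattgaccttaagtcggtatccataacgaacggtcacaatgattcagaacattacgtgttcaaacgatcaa
SDH2-2: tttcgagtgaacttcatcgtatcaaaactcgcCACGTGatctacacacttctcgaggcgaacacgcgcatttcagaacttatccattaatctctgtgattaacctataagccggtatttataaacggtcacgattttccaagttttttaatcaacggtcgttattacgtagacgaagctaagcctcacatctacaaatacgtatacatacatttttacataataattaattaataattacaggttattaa
SDH4: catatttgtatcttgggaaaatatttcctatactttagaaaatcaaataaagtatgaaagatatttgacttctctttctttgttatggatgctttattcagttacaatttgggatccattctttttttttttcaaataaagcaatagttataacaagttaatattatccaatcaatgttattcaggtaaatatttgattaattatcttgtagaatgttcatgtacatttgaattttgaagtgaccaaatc

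Complex I was mixed. Under EtBr 11 of its 32 genes were higher, 4 were lower and 17 did not pass. The share higher, 34.4%, was near the 34.2% of all genes, and 12.5% were lower, against 21.2%. Under Dox none was higher and 4 were lower (12.5%, against 5.27% of all genes). The matrix arm holds the flavin and the iron-sulphur clusters. Of its 7 genes 4 were higher under EtBr (57.1%, against 34.2% of all genes) and none was lower (against 21.2%). The 75 kDa iron-sulphur subunit (AT5G37510, EMB1467) held 4410.3, 4345 and 3766 under EtBr, 2452, 2649.8 and 2454 under Dox and 2329, 1846 and 2142 in water. The EtBr libraries lay above all others, and its log2 change of 0.97 ± 0.14 (adjusted p = 0.000505) was the highest of complex I. Under Dox it was 0.25 ± 0.12 (adjusted p = 0.205). AT1G79010, a gene for the TYKY iron-sulphur subunit, held 2685, 2967 and 2999.6 under EtBr, 1372, 1226 and 1550.2 under Dox and 1461, 1595 and 1663 in water. It rose by 0.85 ± 0.12 (adjusted p = 0.000457) under EtBr against water and by 1.06 ± 0.11 (adjusted p = 0.000346) against Dox, while its log2 change under Dox was -0.20 ± 0.12 (adjusted p = 0.324). The second TYKY gene, AT1G16700, had a log2 change of 0.39 ± 0.13 (adjusted p = 0.0298) under EtBr that did not pass without EtBr replicate 2, water replicate 1 or water replicate 2 (adjusted p = 0.0663, 0.0597 and 0.079). The PSST subunit (AT5G11770) also rose, by 0.48 ± 0.12 (adjusted p = 0.00748). The 51 kDa flavoprotein CI51 (AT5G08530), the 24 kDa subunit (AT4G02580) and the 18 kDa subunit FRO1 (AT5G67590) did not pass, with log2 changes of 0.39, 0.17 and 0.27. No matrix arm gene passed under Dox, where 11.7% of all genes did.

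The carbonic anhydrase domain, a membrane-side part of complex I that animals lack, split by gene. Of its 5 genes 2 were higher under EtBr (40%, against 34.2% of all genes) and 1 was lower (20%, against 21.2%). These shares lie near those of all genes. GAMMA CA3 (AT5G66510) and GAMMACA2 (AT1G47260) rose under EtBr, by 0.74 ± 0.12 (adjusted p = 0.00093) and 0.45 ± 0.12 (adjusted p = 0.013). GAMMA CAL1 (AT5G63510) held 522, 684 and 443 under EtBr, 881, 762 and 885 under Dox and 929.8, 945 and 1037 in water, so every EtBr library lay below every other library. It fell under EtBr, with a log2 change of -0.87 ± 0.17 (adjusted p = 0.00311). GAMMACA1 (AT1G19580) and GAMMACAL2 (AT3G48680) did not pass, at -0.17 and -0.16. Under Dox the 5 genes had log2 changes of -0.28 to 0.045 and none passed (11.7% of all genes did).

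Among the 20 accessory subunits, proteins without redox centres that frame the complex, EtBr raised 5 and lowered 3. These shares of 25% and 15% lie below the 34.2% and 21.2% of all genes. Under Dox 19 of the 20 log2 changes were below 0, with a median of -0.34. Here 4 genes passed as lower (20%, against 5.27% of all genes), and 14 had an unadjusted p under 0.05 (25.7% of all genes did). B13 (AT5G52840) held 1188, 1425 and 1457 under EtBr, 1875, 1674 and 1768 under Dox and 2756, 1989 and 2928 in water. Its 3 groups did not overlap, with EtBr lowest and water highest. It fell under both treatments, by a log2 change of -0.92 ± 0.17 (adjusted p = 0.00218) under EtBr and -0.52 ± 0.15 (adjusted p = 0.0472) under Dox. The ASHI subunit (AT5G47570) held 1499.7, 1759.8 and 1873 under EtBr, 1442, 1139.5 and 1431 under Dox and 1783, 1891 and 1948 in water. Its Dox libraries lay below all water libraries (log2 change -0.51 ± 0.12 (adjusted p = 0.0227)), whereas EtBr did not pass at -0.16 ± 0.13 (adjusted p = 0.316). AT2G33220, a gene for the GRIM-19-like B16.6 subunit, held 1668, 1799.8 and 1718 under EtBr, 1262, 1161 and 1142 under Dox and 1587, 1539.7 and 1504 in water. Dox libraries were the lowest, with a log2 change of -0.39 ± 0.099 (adjusted p = 0.0293) against water, and EtBr exceeded Dox by 0.54 ± 0.081 (adjusted p = 0.00156). The highest adjusted p on leaving out 1 library was 0.238 for B13, 0.144 for ASHI and 0.102 for AT2G33220.

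A gene of the PDSW subunit was the only member called in opposite directions under the treatments. AT3G18410 held 1168, 1657 and 1579.9 under EtBr, 826, 655 and 698 under Dox and 996, 902 and 1112 in water. Its Dox libraries lay below, and its EtBr libraries above, every water library. It fell by a log2 change of -0.48 ± 0.13 (adjusted p = 0.04) under Dox and rose by 0.51 ± 0.16 (adjusted p = 0.0274) under EtBr, and the difference between the treatments was 1.00 ± 0.16 (adjusted p = 0.0021). Each of the calls against water was lost without 1 library: the Dox call without any of the 6, at adjusted p of up to 0.18, and the EtBr call without EtBr replicate 2 or 3 or water replicate 1 or 2, at up to 0.123. The second PDSW gene, AT1G49140, rose by 0.75 ± 0.12 (adjusted p = 0.000933) under EtBr, and its Dox change of -0.41 ± 0.14 (adjusted p = 0.0837) did not pass. The LYR-motif subunits B22 (AT4G34700, CIB22) and B14 (AT3G12260) and the MWFE subunit (AT3G08610) rose under EtBr by 0.59, 0.43 and 0.71 on the log2 scale. The B14 call did not pass without water replicate 1 (adjusted p = 0.0532). Both genes of the 15 kDa subunit fell under EtBr: AT2G47690 by a log2 change of -0.99 ± 0.15 (adjusted p = 0.000658) and AT3G62790 of -0.74 ± 0.15 (adjusted p = 0.00347). AT2G47690 held 359, 382 and 464 under EtBr, 653, 508 and 618 under Dox and 719, 814 and 815 in water, with EtBr libraries below all others.

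In complex III 6 of 11 genes rose under EtBr (54.5%, against 34.2% of all genes) and none fell (21.2% of all genes did). In plants its core subunits double as the mitochondrial processing peptidase, which removes the targeting sequences of imported proteins. The alpha subunit gene AT1G51980 held 4309, 4524 and 4705 under EtBr, 2449, 2632 and 2353 under Dox and 2322, 2067 and 2333 in water. EtBr libraries lay far above the rest, with a log2 change of 0.99 ± 0.12 (adjusted p = 0.000206), and the Dox change of 0.13 ± 0.11 (adjusted p = 0.478) did not pass. MPPBETA (AT3G02090), the beta subunit, had the highest normalised count of all members under EtBr. It held 7973, 8050.2 and 8310.2 under EtBr, 4722, 4819.5 and 4568 under Dox and 4781, 3807 and 4522 in water. It rose by 0.88 ± 0.13 (adjusted p = 0.000736) under EtBr. The other alpha gene, MPPA2 (AT3G16480), did not pass, with a log2 change of -0.096 and an interval of -0.39 to 0.20.

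Both genes of the Rieske iron-sulphur protein, the electron carrier that moves between the quinol site and cytochrome c1, rose under EtBr. UCR1-2 (AT5G13440) held 4522, 5070.5 and 5083 under EtBr, 2572, 2539 and 2514 under Dox and 2385, 2321 and 2062 in water, and its log2 change was 1.09 ± 0.12 (adjusted p = 0.000165) under EtBr and 0.16 ± 0.10 (adjusted p = 0.36) under Dox. UCR1-1 (AT5G13430) rose by 0.64 ± 0.12 (adjusted p = 0.00271). The cytochrome c1 genes CYC11 (AT3G27240) and CYC12 (AT5G40810) did not pass, with intervals of -0.17 to 0.41 and -0.47 to 0.056. QCR7-2 (AT5G25450), a small subunit gene at the lowest level of all members, held 239.9, 267 and 472 under EtBr, 46.1, 38.5 and 62.2 under Dox and 99.7, 73.2 and 90.4 in water. All 3 groups were apart, with Dox lowest. Its log2 change of 1.80 ± 0.28 (adjusted p = 0.000856) under EtBr was the highest of all members, and its Dox change of -0.86 ± 0.29 (adjusted p = 0.0863) did not pass. The gene overlaps 2 annotated transcripts on the opposite strand, AT5G03975 and AT5G25451. QCR7-1 (AT4G32470), which carries most reads for that subunit, rose by 1.01 ± 0.14 (adjusted p = 0.000498) under EtBr.

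QCR8, another small subunit, has a gene that fell under Dox. AT3G10860 held 1660.5, 2199 and 1902 under EtBr, 1547, 1020.0 and 1321 under Dox and 1955, 1933 and 2173 in water. Dox libraries lay below all others. Its log2 change was -0.67 ± 0.15 (adjusted p = 0.0165) under Dox, the lowest among members that passed, and -0.10 ± 0.14 (adjusted p = 0.534) under EtBr. No 1 library could be left out without losing the Dox call (adjusted p of up to 0.162), and this gene too overlaps neighbours on the opposite strand. AT5G05370, the second QCR8 gene, did not pass under either treatment, at -0.35 under EtBr and -0.40 under Dox.

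Complex IV had 2 of its 5 genes higher under EtBr, COX5B-2 and COX6a, and 1 lower under Dox, COX5B-1. The 40% higher under EtBr lies near the 34.2% of all genes. With only 5 genes, the 1 lower under Dox makes 20%, against 5.27% of all genes. COX5B-1 (AT3G15640), a zinc-binding subunit, held 1419, 1502 and 1495 under EtBr, 1114, 969 and 1074 under Dox and 1281, 1589 and 1482 in water. The Dox libraries were the lowest, with a log2 change of -0.47 ± 0.12 (adjusted p = 0.0269) against water, whereas EtBr and water overlapped (log2 change 0.0027 ± 0.13 (adjusted p = 0.987)). The Dox call was lost without any Dox library or without water replicate 2 or 3, at adjusted p of up to 0.142. COX5B-2 (AT1G80230) held 1113, 1222 and 1284 under EtBr, 745, 781 and 865 under Dox and 726, 795 and 856 in water. Here the EtBr libraries stood above the others, at a log2 change of 0.58 ± 0.13 (adjusted p = 0.00459), and Dox and water overlapped. COX6a (AT4G37830) held 4139.9, 4839 and 4453 under EtBr, 3039, 2620.4 and 3224 under Dox and 3375, 3137 and 3245 in water and rose by 0.44 ± 0.12 (adjusted p = 0.014) under EtBr. COX5c (AT2G47380) and COX6B-1 (AT1G22450) passed in no comparison. COX5c held 454, 615 and 603 under EtBr, 602, 369 and 491 under Dox and 576, 502 and 693 in water, with all groups overlapping.

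In complex V 5 of 7 genes rose under EtBr, 1 fell, and none passed under Dox (11.7% of all genes did). Thus 71.4% rose and 14.3% fell under EtBr, against 34.2% and 21.2% of all genes. The central stalk, which turns as protons flow, gave log2 changes of 0.67 ± 0.13 (adjusted p = 0.00312) for the gamma subunit (ATPC, AT2G33040) and 0.61 ± 0.12 (adjusted p = 0.00254) for the delta' subunit (AT5G47030). Of the peripheral stalk, which holds the catalytic head still, the OSCP subunit ATP5 (AT5G13450) held 4103, 4214 and 3746 under EtBr, 2235, 2302 and 2374 under Dox and 2048, 2157 and 2255 in water and rose by 0.88 ± 0.12 (adjusted p = 0.000358) under EtBr. ATPQ (AT3G52300), the d subunit, held 3941, 4642 and 4582 under EtBr, 3155, 2554 and 3109.7 under Dox and 3192, 3242 and 3508 in water. Its log2 change of 0.38 ± 0.12 (adjusted p = 0.0294) did not pass without EtBr replicate 2 or any 1 of the water libraries (adjusted p of up to 0.0747).

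The catalytic beta subunit is encoded by 3 genes in a row on chromosome 5, and these differed. AT5G08680 (chr5:2821739-2825039) held 4719, 4792 and 4408 under EtBr, 2308, 2462 and 2338 under Dox and 2871, 2412 and 2861 in water. EtBr libraries stood above all others, with a log2 change of 0.75 ± 0.12 (adjusted p = 0.00115) against water and 0.97 ± 0.081 (adjusted p = 0.000165) against Dox. AT5G08690 (chr5:2825661-2828806) held 3329, 3029.7 and 2704 under EtBr, 3586, 3797 and 3378 under Dox and 4134, 3442 and 4069.7 in water. It fell under EtBr, with a log2 change of -0.39 ± 0.14 (adjusted p = 0.0401), a call lost without EtBr replicate 2 or 3 or water replicate 1 or 3 (adjusted p of up to 0.119). AT5G08670 (chr5:2818091-2821251) held 5272, 5015 and 4134 under EtBr, 5087, 5376 and 4509 under Dox and 6278, 4234 and 5343 in water. Its groups overlapped, and its log2 change was -0.15 ± 0.18 (adjusted p = 0.483). The copies are close in sequence, and no source used here says how reads matching more than 1 of them were counted, which leaves the split of reads between them uncertain.

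The windows before the beta subunit gene AT5G08690, which fell under EtBr, and the alpha processing peptidase gene AT1G51980, which rose, are printed because both hold the same number of site II elements. Capitals mark site II elements on either strand, so that AGCCCA is TGGGCT read from the other strand. The windows are chr5:2825411-2825660, plus strand for AT5G08690 and chr1:19326919-19327168, minus strand for AT1G51980 (RefSeq, TAIR10.1).
AT5G08690: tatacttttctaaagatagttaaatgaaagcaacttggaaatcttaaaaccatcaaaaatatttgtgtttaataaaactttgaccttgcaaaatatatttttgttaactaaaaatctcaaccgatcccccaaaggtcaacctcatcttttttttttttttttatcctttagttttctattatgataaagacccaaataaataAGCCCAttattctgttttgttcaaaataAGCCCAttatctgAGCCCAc
AT1G51980: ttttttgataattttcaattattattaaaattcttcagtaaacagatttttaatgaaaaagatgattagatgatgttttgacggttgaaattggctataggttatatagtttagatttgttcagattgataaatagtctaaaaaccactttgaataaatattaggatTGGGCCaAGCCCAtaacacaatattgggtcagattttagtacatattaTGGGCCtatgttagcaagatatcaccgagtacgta

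AT5G08690 and AT1G51980 had 3 site II elements each in this window. Over all members, 32 of 59 windows (54.2%) held at least 1 site II element, against 19.2% of 27443 windows of protein-coding nuclear genes. By complex these were 18 of 32 for I, 0 of 4 for II, 8 of 11 for III, 2 of 5 for IV and 4 of 7 for V. Of the 64 matches in member windows, 60 ended within 100 bases of the start, at a median position of -35.5. Elements that overlap on opposite strands count as separate matches, and 30 of the 59 windows overlap another annotated gene. Members higher under EtBr had an element in 11 of 28 windows, members lower in 4 of 5 and those that did not pass in 17 of 26. The telo box AAACCCTA stood in 4 of 59 windows (6.78%, against 4.49% of all), and the G box CACGTG in 5 (8.47%, against 6.49%). The mitochondrial dysfunction motif bound by the factor ANAC013 was searched in 2 forms. The first was in none of the member windows (0.74% of all) and the second in 1, that of CI51 (1.69%, against 0.466% of all). These are matches of letters in 1 window per gene, with no measure of binding.

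**Figure D3:**
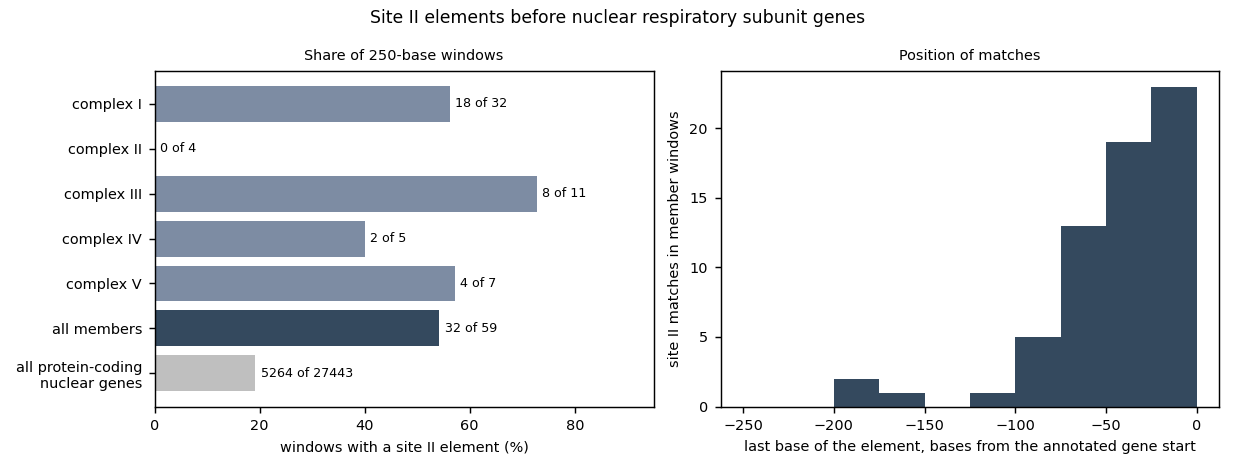
Left, percentage of 250-base windows with a site II element for each complex, for all 59 members and for all protein-coding nuclear genes, with counts beside the bars; right, number of matches by the distance of the element's last base from the annotated gene start. Complex II has 0 of 4 windows with an element and complex III 8 of 11, and 60 of 64 matches end within 100 bases of the start.

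For 15 subunits, 2 or 3 genes encode the same protein or close relatives, which gives 19 pairs whose ratio can be taken within each library, free of the size factor. The 3 gamma carbonic anhydrase genes and the 3 beta subunit genes give 3 pairs each, and pairs that share a gene are not independent. The ratio ranges of EtBr and water did not overlap in 15 of 19 pairs, which include all pairs of these 2 sets. Those of Dox and water did not overlap in 5 pairs and those of EtBr and Dox in 15. No such share was computed for other pairs of genes; among single genes, the levels did not overlap for 62.7% of 24319 genes between EtBr and water, 30.7% between Dox and water and 64.7% between EtBr and Dox. With 3 libraries in each group the exact permutation test (2-sided) cannot give a p under 0.1, so no pair can pass, and after adjustment over the 19 pairs the lowest p was 0.127 for EtBr against water and 0.38 for Dox against water. AT5G08680 over AT5G08690 averaged 1.54 ± 0.11 under EtBr, 0.661 ± 0.027 under Dox and 0.699 ± 0.0045 in water (SD, n = 3 each), so the more abundant of these genes differed. The alpha peptidase pair AT1G51980 over MPPA2 averaged 6.26 ± 0.64 under EtBr, 3.38 ± 0.27 under Dox and 2.95 ± 0.21 in water. For COX5B-1 over COX5B-2 the ratio was 1.22 ± 0.056 under EtBr, 1.33 ± 0.15 under Dox and 1.83 ± 0.15 in water. There both treatments lay below water.

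Other pairs moved in different directions under the 2 treatments. AT1G79010 over AT1G16700 (TYKY) averaged 2.56 ± 0.12 under EtBr, 1.42 ± 0.14 under Dox and 1.86 ± 0.19 in water. QCR7-1 over QCR7-2 averaged 12.6 ± 3.3 under EtBr, 40.2 ± 6.1 under Dox and 21.9 ± 4.1 in water. In both pairs all 3 groups were apart, with water between the treatments. The 15 kDa genes and the PGIV genes overlapped between all groups. AT2G47690 over AT3G62790 averaged 1.08 ± 0.19 under EtBr, 1.21 ± 0.031 under Dox and 1.27 ± 0.071 in water.

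**Figure D4:**
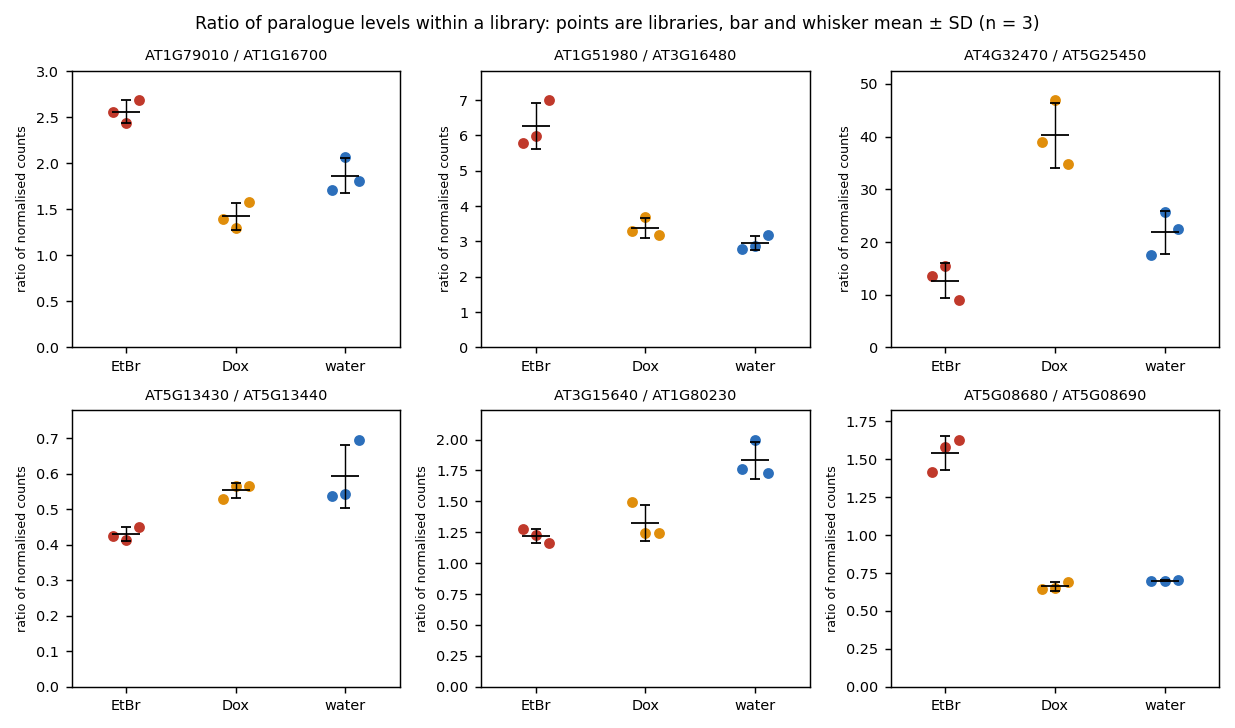
Ratio of the normalised counts of 2 genes for the same subunit within each library, for 6 pairs; points are libraries and the black bar and whisker show mean ± SD (n = 3). AT5G08680 over AT5G08690 lies above 1 in all EtBr libraries and below 1 in all Dox and water libraries.

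Per kilobase of gene model the members spanned a wide range. In water the highest was COX6a at 4122 normalised counts per kilobase, followed by ATPQ at 3010 and MWFE at 2968, and the lowest were QCR7-2 at 62.9, SDH2-2 at 164 and GAMMACA1 at 285. The median per kilobase was 1519 under EtBr, 1133 under Dox and 1297 in water for complex I, and 1382, 727 and 552 in the same order of groups for complex II. Complex III had medians of 1617 under EtBr, 1081 under Dox and 1063 in water. For complex IV they were 1023 under EtBr, 887 under Dox and 992 in water, and for complex V 3174, 2010 and 2046 in that order. Complex II thus had the lowest median in water and complex V the highest.

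Other genes of the same pathway give the setting. Of 23 further nuclear subunit genes 14 were higher (60.9%) and 1 was lower (4.35%) under EtBr, against 34.2% and 21.2% of all genes. Of the 22 measured for Dox 2 were higher and 2 lower (9.09% each), against 6.47% and 5.27% of all genes. Of these further genes, 8 belong to complex II (a split made after the values were seen). Under EtBr 7 of the 8 were higher and none was lower, while under Dox 2 were higher and 1 was lower. The genes AT5G09600 and AT4G32210 of the SDH3 membrane anchor rose under EtBr by 1.60 ± 0.18 (adjusted p = 0.000185) and 1.85 ± 0.24 (adjusted p = 0.000324). SDH8 (AT2G46390) held 638, 744 and 1051 under EtBr, 625, 350.5 and 418 under Dox and 1024, 756 and 909.7 in water and fell under Dox, with a log2 change of -0.99 ± 0.20 (adjusted p = 0.0109). SDH2-3 (AT5G65165), another gene for the iron-sulphur subunit that is known from seeds, held 35.6, 50.9 and 34.8 under EtBr, 25.6, 41.5 and 27.5 under Dox and 1.03, 4.95 and 6.38 in water, with a log2 change of 2.81 ± 0.56 (adjusted p = 0.00985) under Dox and 3.18 ± 0.56 (adjusted p = 0.00165) under EtBr.

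Among 19 genes for cytochrome c and assembly factors, 14 were higher (73.7%) and 2 lower (10.5%) under EtBr, against 34.2% and 21.2% of all genes. Under Dox 5 were higher (26.3%) and 1 was lower (5.26%), against 6.47% and 5.27%. AT5G40660, which overlaps SDH2-2 and may share reads with it, is 1 of the 14. HCC2 (AT4G39740), a relative of the copper chaperone SCO1, held 696, 729 and 911 under EtBr, 410.4, 337 and 407 under Dox and 77.1, 104 and 79.8 in water. It rose by 3.13 ± 0.19 (adjusted p = 1.13e-05) under EtBr and 2.13 ± 0.19 (adjusted p = 6.17e-05) under Dox, more than any member. COX15 (AT5G56090), of haem a synthesis, rose by 1.40 ± 0.16 (adjusted p = 0.000155) under EtBr and 1.94 ± 0.14 (adjusted p = 1.41e-05) under Dox. Of 21 tricarboxylic acid cycle genes 13 were higher under EtBr (61.9%), and 4 of 20 measured under Dox (20%), with none lower. The aconitase ACO3 (AT2G05710) rose by 1.46 ± 0.13 (adjusted p = 6.43e-05) under EtBr and 0.85 ± 0.12 (adjusted p = 0.00159) under Dox. Of the mitochondrion-encoded subunits 19 of 20 measured were higher under EtBr (95%, median log2 change 3.95) and 5 of 19 under Dox (26.3%, median 1.53), with none lower. Their 19 shared genes summed to 2444, 2984 and 2794 normalised counts under EtBr, 222, 650.3 and 465 under Dox and 70.9, 117 and 91.5 in water. All mitochondrial genes, those for ribosomal RNA included, took 0.375%, 0.469% and 0.359% of reads in the EtBr libraries, 0.0358%, 0.00923% and 0.0848% in the Dox libraries and 0.0109%, 0.0194% and 0.0116% in the water libraries. No source used here says whether poly(A) RNA was selected.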

How the data were processed

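RNA was measured in 9 seedling libraries, 3 each of EtBr, Dox and water. TRIzol gave total RNA and a NEBNext Ultra kit the libraries, per the labels' protocols. Tools listed without a role, per the submitters' processing notes, are Bowtie2 2.2.3, DESeq 1.18.0, HTSeq 0.6.1, TopHat2 2.0.12 and CASAVA 1.8. No source used here names the genome build. All 59 members have the same start and end in RefSeq TAIR10.1, which gave strand, neighbours and promoter windows.

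The authors deposited 2 tables, with 24434 genes for Dox and 28956 for EtBr, each against water. Their signal values per library are read counts that the authors divided by a size factor: dividing each of the 12 library columns by its own step gave whole numbers for 100% of values (tolerance 0.001). The step lay near 1 in 4 columns, where this test is weak. Recovered water reads were identical in both tables for 100% of 24319 shared genes. A log2 fold change, a p-value and its adjusted form per gene, also deposited by the authors, served only as an alternative.

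Treated and water libraries (6 in all) were compared by limma 3.58.1 in R 4.3.3, using its mean-variance trend and log2(value + 1) of every gene in the table. No replicate block entered, and p-values were adjusted by Benjamini-Hochberg (threshold 0.05). EtBr was tested against Dox on recovered reads of genes in both tables, after median-ratio scaling over the 9 libraries together. Printed levels are on that scale, which differs from the deposited one by -0.014 (Dox) and -0.023 (EtBr) in log2 change against water. Ratios of paralogues used an exact permutation test. As alternatives, edgeR 4.0.16 on the recovered reads called 1497 genes higher and 1356 lower for Dox, 7625 and 6255 for EtBr, and 6801 and 6544 between them. DESeq2 1.42.0 was also run. The fits were tested on simulated data.

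In each complex, values in every library went to the 2 members with the smallest p in each comparison with water and the 1 with the smallest p between treatments. Paralogues, and the 2 genes of each other list with the smallest p in a comparison, could also be named. B13, PSST, CI51, the 24 kDa subunit, FRO1, B14, B22, MWFE, MPPBETA, COX6B-1, ATPC, AT5G47030, EXPA18, PHO1, AT3G27360 and AT5G40660 were named after their values were seen. Members, lists and rules were chosen with earlier results of these data known.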

Additional observations from a re-analysis of the deposited data

How the results depend on the processing

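The 26 members given with every library kept their direction wherever they had passed: over their settings, 69 Dox calls remained and 59 were lost, against 300 and 20 for EtBr over water and 312 and 18 for EtBr over Dox. Members higher under Dox numbered 2, but 1 with median centring, the replicate block or edgeR, 0 at an adjusted p under 0.01 and 0 to 1 with 1 library left out. Members lower under Dox numbered 6, but 3 with the replicate block, 0 at 0.01 and 0 to 2 with 1 library left out. Of all genes, 834 were higher and 447 lower under Dox at 0.01, and 520 to 1168 and 248 to 812 with 1 library left out. Members lower under EtBr than under Dox numbered 3, but 8 with TMM, 6 with edgeR, 0 at 0.01 and 0 to 4 with 1 library left out. The stricter threshold leaves fewer calls by construction; for the other settings the cause was not tested. Among these 26 members, 6 changes near 0 that had not passed turned sign. MPPBETA (AT3G02090) had a log2 change of 0.099 under Dox, and -0.0029 to 0.17 with 1 library left out. AT5G08670 had -0.082 under Dox, and -0.24 to 0.052, and -0.058 for EtBr over Dox, and -0.13 to 0.047. COX5B-2 (AT1G80230) had a log2 change of -0.005 under Dox, and -0.072 to 0.058 with 1 library left out. COX5B-1 (AT3G15640) had 0.0027 under EtBr, but -0.0083 with median centring, -0.051 with TMM, -0.035 with edgeR, -0.0027 with DESeq2 and in the authors' deposited table, and -0.083 to 0.073 with 1 library left out. COX5c (AT2G47380) had -0.11 under EtBr, and -0.22 to 0.035 with 1 library left out. Whether the replicate numbers pair the libraries cannot be decided, as 3 libraries in each group leave few ways to match them. Deviations of same-numbered libraries correlated at -0.015 to 0.035 for Dox and water, -0.14 to 0.12 for EtBr and water and 0.049 to 0.21 for EtBr and Dox. With the replicate block 27 members were higher and 4 lower under EtBr than in water, and 33 and 3 against Dox.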
